A study of Mus musculus with 16 samples.

Results

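The genes described here belong to the response of cells to low oxygen and to glycolysis, the breakdown of glucose to pyruvate. A set of 36 genes was defined by symbol, and a gene was included where at least 1 array probe set carried its symbol alone. This held for 34 of the 36 genes, through 76 of the 45037 probe sets in the data. Gpi1 and Eno1 had no such probe set and were not analysed here. The data cover 18193 genes in all. Among the 34 genes, 11 had a single probe set and 23 had several, up to 5. Each gene is represented below by the brightest of its probe sets, taken over all 16 arrays without regard to group, and some of the other probe sets are given beside it. Counts of genes and statements of the smallest or largest value are by the representing probe set unless another is named.

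RNA of 16 whole mouse embryos was measured on Affymetrix arrays, 1 embryo per array and 4 embryos per group. All embryos were female, had 11 to 14 somites, were taken before the cranial neural tube had closed, and had been freed of their extraembryonic membranes. Per the labels, the first group held BALB/cCrl embryos homozygous for the Cecr2Gt45Bic gene trap, from crosses between heterozygotes, and the second held wild type BALB/cCrl embryos. The third group held FVB/N embryos homozygous for the same Cecr2Gt45Bic allele, from crosses between homozygotes, and the fourth held wild type FVB/N embryos. The allele had been backcrossed onto each strain for over 10 generations, and no agent was given to any group. In FVB/N the genotype and the cross therefore cannot be told apart. Between BALB/cCrl mutants and FVB/N mutants, the strain and the cross cannot be told apart either. The same limit holds where the effect of the allele is compared between the strains. The series describes the embryos of a group as biological replicates. Litters, and the somite number of each embryo, are not given in the sources used here. Each array reads a whole embryo, so fewer cells of a type and less RNA per cell cannot be told apart.

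Cecr2 encodes a chromatin remodelling factor, and mice lacking it on BALB/c backgrounds are known for failure of cranial neural tube closure, to which FVB/N mice are resistant. The hypoxia response turns on the HIF transcription factors. With oxygen present, prolyl hydroxylases of the Egln family mark HIF alpha subunits for destruction, and when oxygen falls the subunits persist, bind DNA with their partner and raise genes for glucose uptake, glycolysis, blood vessel growth and mitochondrial turnover. The embryo before and during neural tube closure relies heavily on glycolysis and holds regions of low oxygen, since its circulation is only starting.

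HIF dimers bind a short core motif, ACGTG or GCGTG. Upstream sequence with this core is shown for the genes that differed between the mutants of the 2 strains. Of those 12 genes 10 are shown, and Ndrg1 and Plod2 are named only. Both strands were searched, so the core on the opposite strand reads CACGT or CACGC, and the palindrome CACGTG counts as a match on either strand. The stretches below are RefSeq promoter sequence of the reference genome GRCm38.p6, which is neither BALB/cCrl nor FVB/N. Each is written 5′ to 3′ on the strand of its gene, and capitals mark the core. They run from the first to the last match upstream of an annotated transcription start, with up to 15 bases of flank.
Egln1 (chr8:124949303-124949395, minus strand): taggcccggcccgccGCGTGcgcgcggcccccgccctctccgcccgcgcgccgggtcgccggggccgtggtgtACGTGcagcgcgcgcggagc
Bnip3 (chr7:138909522-138909638, minus strand): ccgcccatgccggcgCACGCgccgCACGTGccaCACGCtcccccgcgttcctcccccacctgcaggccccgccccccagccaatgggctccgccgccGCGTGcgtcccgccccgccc
Ddit4 (chr10:59951866-59951972, minus strand): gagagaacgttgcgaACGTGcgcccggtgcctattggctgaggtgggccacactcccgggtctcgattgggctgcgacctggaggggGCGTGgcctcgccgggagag
Hk1 (chr10:62340422-62340632, minus strand): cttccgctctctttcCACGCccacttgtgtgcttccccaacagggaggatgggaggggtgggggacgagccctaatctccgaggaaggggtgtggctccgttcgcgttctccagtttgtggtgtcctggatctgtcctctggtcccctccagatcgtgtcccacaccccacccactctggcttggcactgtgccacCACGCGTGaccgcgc
Pfkl (chr10:78009887-78009921, minus strand): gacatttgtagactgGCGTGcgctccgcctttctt
Pfkp (chr13:6648775-6648922, minus strand): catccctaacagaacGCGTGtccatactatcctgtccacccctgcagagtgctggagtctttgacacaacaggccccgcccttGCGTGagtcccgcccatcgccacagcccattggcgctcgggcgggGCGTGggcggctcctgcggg
Pgam1 (chr19:41911681-41911802, plus strand): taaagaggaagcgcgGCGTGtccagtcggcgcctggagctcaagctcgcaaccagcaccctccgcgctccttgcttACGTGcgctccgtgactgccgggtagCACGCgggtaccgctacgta
Pkm (chr9:59657137-59657171, plus strand): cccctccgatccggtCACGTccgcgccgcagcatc
Pdk1 (chr2:71873131-71873165, plus strand): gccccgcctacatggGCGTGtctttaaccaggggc
Ak4 (chr4:101419200-101419272, plus strand): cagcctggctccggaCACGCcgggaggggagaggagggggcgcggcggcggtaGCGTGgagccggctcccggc
Ak4 (chr4:101419474-101419509, plus strand): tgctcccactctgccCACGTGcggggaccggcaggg

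Of the 34 genes, 31 had at least 1 promoter in the RefSeq table (250 bases before to 50 bases after a start), and 46 promoters were listed for them. All 31 genes carried the core in at least 1 promoter, against 46.7% of the 27025 genes in the table. Counted by promoter, 82.6% of the 46 held it, against 43.8% of all 32851 promoters. Genes that differed between the mutants did not stand out in this. Of their 16 promoters 81.2% held the core, against 83.3% of the 30 promoters of the other genes in the set. The promoters of the 31 genes had a median GC content of 64.8%, against 52.7% over the table, and the part of base composition in the motif share was not tested. A match describes the letters in the window and does not show binding.

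Expression values are log2 units normalised over all 16 arrays by the authors, so a difference of 1 is a doubling. Values are given in the order of embryos 1 to 4 of a group. The arrays of a group correlated at 0.995 to 0.998, and array medians lay between 6.36 and 6.42. As a check of the labels, both Cecr2 probe sets were lower in every mutant than in every wild type of the same strain. The first averaged 5.85 ± 0.60 in BALB/cCrl mutants and 8.23 ± 0.31 in BALB/cCrl wild types, and the same probe set averaged 5.57 ± 0.43 in FVB/N mutants and 8.53 ± 0.30 in FVB/N wild types (SD, n = 4 each). Embryo markers such as Sox2, Pax3 and Twist1 were present, and 6 of 8 trophoblast and decidua markers averaged below 4.53. That value is the top of the range, from 3.03, of 9 probe sets for 4 Y-linked genes in these female embryos. The representing probe sets of all 34 genes lay above it on every array. The averages of the trophoblast and decidua markers do not describe every embryo. Their summed linear level over the 8 markers reached 883 in BALB/cCrl mutants (median 158) and 642 in BALB/cCrl wild types (median 182). The highest sums were 271 in FVB/N mutants and 184 in FVB/N wild types.

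The clearest difference in these genes was between the mutants of the 2 strains, which also came from different kinds of cross. In BALB/cCrl mutants, 12 of the 34 genes were higher than in FVB/N mutants and none was lower. The 12 are the oxygen sensor Egln1, the hypoxia effectors Ndrg1, Bnip3 and Ddit4, the collagen hydroxylase Plod2, the glycolytic enzymes Hk1, Pfkl, Pfkp, Pgam1 and Pkm, and the flux regulators Pdk1 and Ak4. Their differences ran from 0.11 for Pkm to 0.70 for Ndrg1 on the log2 scale, or 1.08-fold to 1.63-fold. The test was limma over all probe sets with Benjamini-Hochberg adjustment and a threshold of 0.05. It called 35.3% of the 34 genes, against 11.4% of all genes in the same comparison, and 4.15% of all genes were called higher. Without regard to the test, 31 of the 34 genes lay above 0, with a median difference of 0.21, against 47.3% of all genes and a median of -0.01. At an unadjusted p under 0.05 there were 23 of 34, against 24.1% of all genes. In 11 of the 34 genes every BALB/cCrl mutant was above every FVB/N mutant, against 5.05% of all genes.

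**Figure D1:**
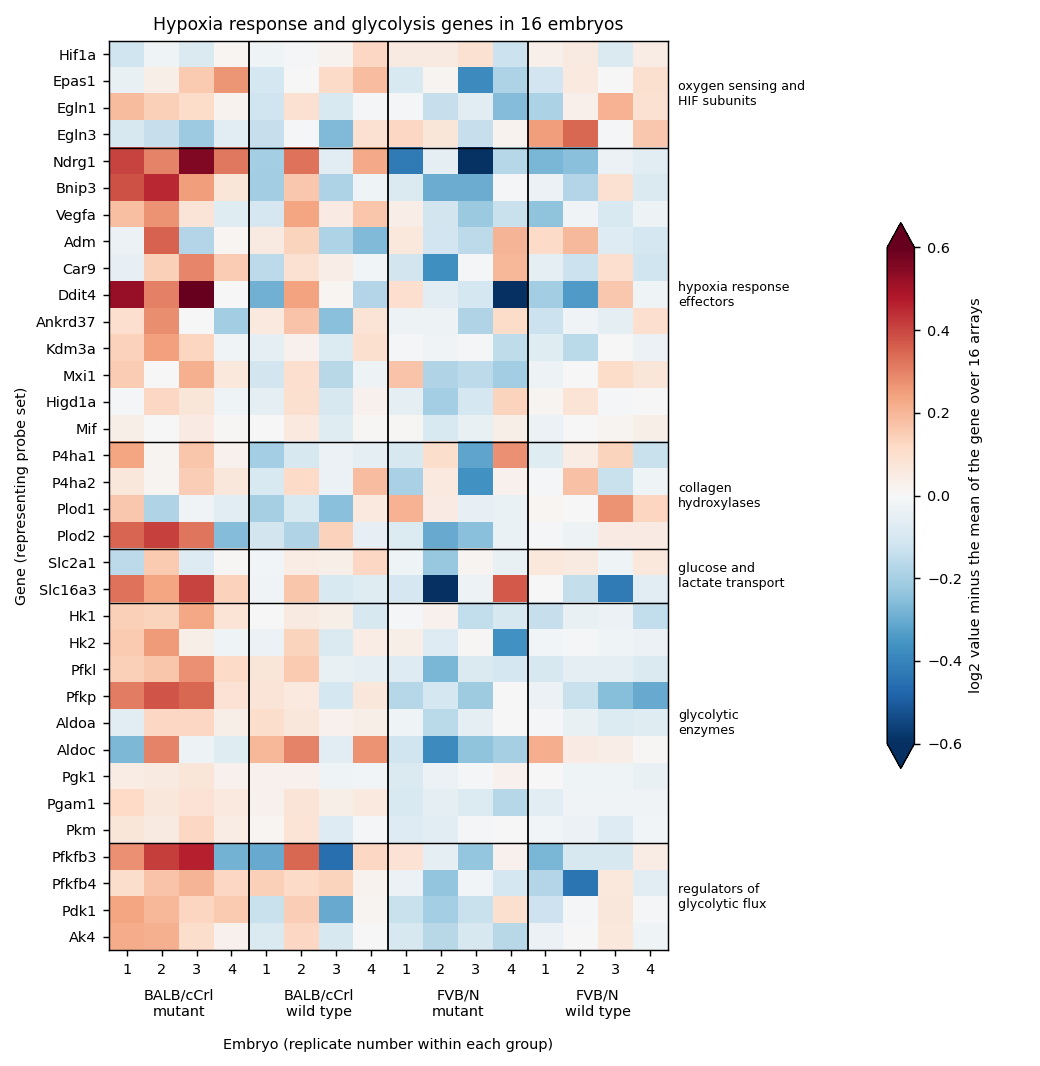
Heat map of the representing probe set of each of the 34 genes (rows, by role) in 16 embryos (columns, by group); colour gives the log2 value minus the mean of the gene over the 16 arrays. BALB/cCrl mutants hold the highest group mean in 29 of 34 genes and FVB/N mutants the lowest in 23 of 34.

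Across the 4 groups, BALB/cCrl mutants had the highest group mean in 29 of the 34 genes, and FVB/N mutants had the lowest in 23. No gene of the 34 passed the test between mutants and wild types of either strain, or between the wild types of the 2 strains, by its representing probe set. Since both mutant groups enter the comparison that was called and also the comparisons with wild types, these results are not independent of each other. Taking the median over the 34 genes of each array's deviation from the gene means, the BALB/cCrl mutants stood at 0.14, 0.16, 0.13 and 0.02 and the FVB/N mutants at -0.05, -0.10, -0.11 and -0.04. The BALB/cCrl wild types stood at -0.06, 0.09, -0.07 and 0.03 and the FVB/N wild types at -0.03, -0.02, -0.02 and -0.03. BALB/cCrl mutant 4 was thus nearer to the wild types than its 3 companions, and it was the lowest of its group in 18 of 34 genes. Among the BALB/cCrl wild types, embryo 2 was the highest in 21 of 34 genes.

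Markers of blood also differed between the same groups. Of 11 primitive erythroid markers, 5 were higher in BALB/cCrl mutants than in FVB/N mutants by limma: Alas2 by 0.82 (adjusted p = 0.02), Hba-x by 0.49 (adjusted p = 0.03), Gata1 by 0.43 (adjusted p = 0.037), Hbb-bh1 by 0.30 (adjusted p = 0.033) and Hbb-y by 0.29 (adjusted p = 0.034). The summed linear level of the 11 ran from 66500 to 74600 in BALB/cCrl mutants and from 45800 to 62800 in FVB/N mutants, without overlap. This sum mostly reflects the brightest globins, Hbb-y, Hbb-bh1 and Hba-x, which averaged 14.49, 14.43 and 13.89 on the log2 scale. The calls were 45.5% of the list, against 11.4% of all genes, and 10 of the 11 markers lay above 0 with a median of 0.35. In wild types the sums overlapped, at 60300 to 75800 in BALB/cCrl and 48300 to 72300 in FVB/N, and no erythroid marker passed the test. The direction was the same there, with 10 of the 11 above 0 and a median of 0.18. The test of the difference between the 2 trap effects called none of the 11 (smallest limma adjusted p = 0.62). Of 10 heart muscle markers, 6 lay above 0 between mutants with a median of 0.03, and the 2 that passed, Actc1 and Myh7, were lower in BALB/cCrl mutants. Their sums overlapped, at 31200 to 34600 in BALB/cCrl mutants and 33100 to 35600 in FVB/N mutants. Between wild types 4 of the 10, Myl7, Tnnt2, Tnni1 and Nppa, were higher in BALB/cCrl, with a median of 0.31 over the list. The 10 endothelial and 9 visceral endoderm markers included none that was called in either comparison of strains. Averaged over both strains, the trap effect called 1 of the endothelial markers, or 10.0% against 0.544% of all genes. It was Sox17, with -0.36 (SE 0.07, limma adjusted p = 0.028). Visceral endoderm sums were spread widely, from 12900 to 42500 in BALB/cCrl mutants and from 6940 to 33800 in FVB/N mutants. Of 9 embryo proper markers, Meox1 and Twist1 were lower in BALB/cCrl than in FVB/N wild types, with -0.61 (limma adjusted p = 0.016) and -0.39 (0.014). They were 22.2% of the list, against 6.90% of all genes. Between mutants only Twist1 passed by the representing probe set, with -0.30 (limma adjusted p = 0.044), or 11.1% against 11.4% of all genes. A dimmer Pax3 probe set gave 0.36 (limma adjusted p = 0.012) between mutants and -0.41 (0.046) for the trap in FVB/N. The part of these cell types in the differences of the hypoxia and glycolysis genes was not tested.

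**Figure D2:**
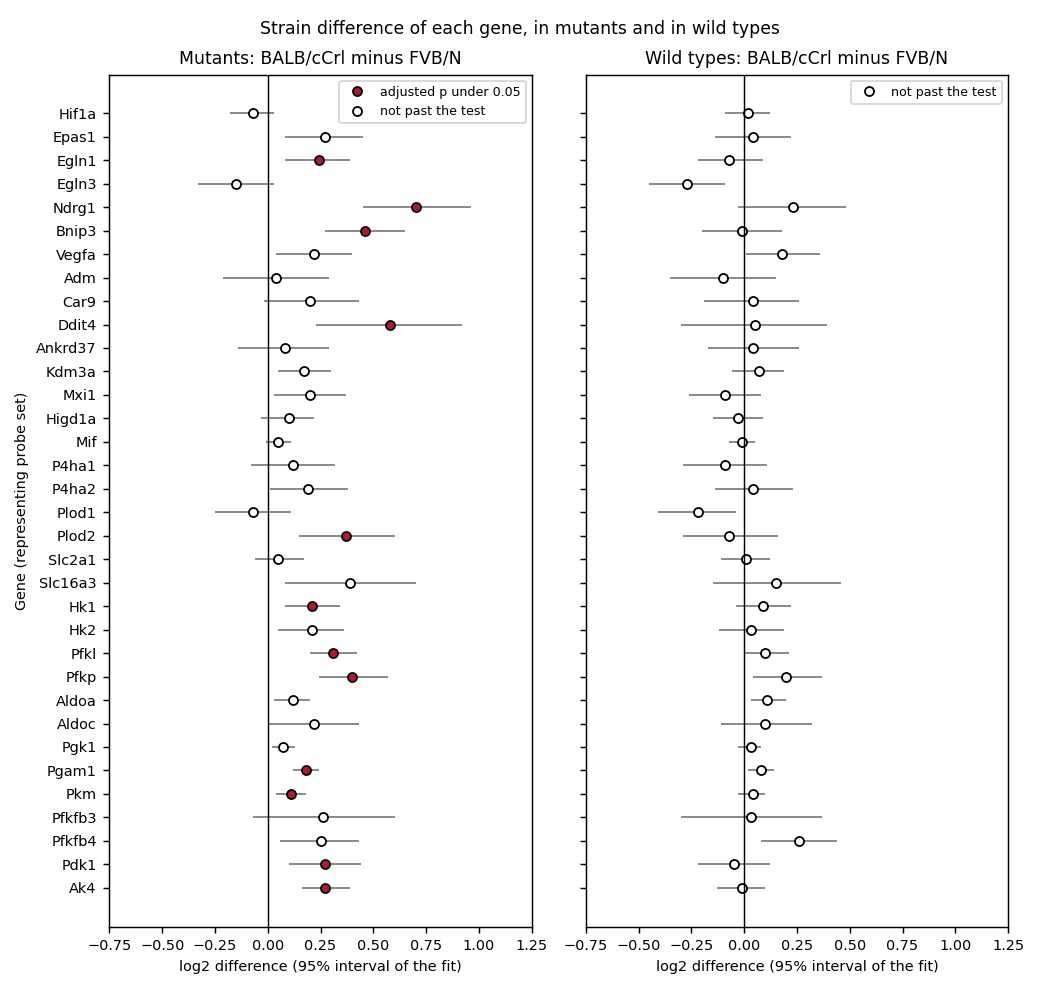
Difference between strains for each of the 34 genes, BALB/cCrl minus FVB/N, in mutants (left) and in wild types (right); points are limma log2 differences and lines their 95% intervals, and filled points passed an adjusted p of 0.05. In mutants 12 genes are filled and 31 of 34 lie above 0, while in wild types none is filled and 22 of 34 lie above 0.

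The oxygen sensing group holds the HIF alpha subunits Hif1a and Epas1 and the prolyl hydroxylases Egln1 and Egln3. Of the 4, only Egln1 passed the test. Egln1, the main oxygen sensor of the pathway, on chromosome 8 (124908587 to 124949254), measured 10.43, 10.38, 10.35 and 10.26 in BALB/cCrl mutants and 10.23, 10.10, 10.17 and 9.98 in FVB/N mutants. Wild types measured 10.12, 10.33, 10.15 and 10.23 in BALB/cCrl and 10.05, 10.27, 10.45 and 10.33 in FVB/N. Every BALB/cCrl mutant was above every FVB/N mutant, while the FVB/N wild types spread across nearly the whole range of the other groups. The difference between mutants was 0.24 (SE 0.07, 95% interval 0.08 to 0.39, limma adjusted p = 0.048). Its adjusted p lay close to the threshold, and the call was lost in 18 of 26 alternative settings (adjusted p 0.021 to 0.19). The second Egln1 probe set gave 0.21 (adjusted p = 0.38).

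Hif1a and Epas1 themselves did not pass. Hif1a gave -0.07 (SE 0.05, adjusted p = 0.44) between mutants and Epas1, the alpha subunit first described in endothelium, gave 0.27 (SE 0.09, adjusted p = 0.058). The other hydroxylase, Egln3, had its lowest mean in BALB/cCrl mutants, as did Hif1a. It measured 8.43, 8.39, 8.31 and 8.46 in BALB/cCrl mutants and 8.65, 8.60, 8.39 and 8.55 in FVB/N mutants, and 8.39, 8.52, 8.26 and 8.62 in BALB/cCrl wild types and 8.78, 8.87, 8.52 and 8.69 in FVB/N wild types. The FVB/N wild types were the highest group, yet the groups overlapped in both comparisons of strains. Its difference was -0.15 (SE 0.09, adjusted p = 0.34) between mutants and -0.27 (SE 0.09, adjusted p = 0.069) between wild types. The sign between mutants depended on the probe set, since the second Egln3 probe set gave 0.19 (SE 0.09, adjusted p = 0.23). Hif1a had 4 probe sets, which ran from -0.18 to 0.30 between mutants with none called.

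Among the 11 effectors of the hypoxia response all 11 differences were above 0 between mutants, and 3 passed. Ndrg1, a stress-induced gene used as a marker of hypoxia in many tissues, lies on chromosome 15 (66929318 to 66969641). It measured 8.46, 8.35, 8.61 and 8.37 in BALB/cCrl mutants and 7.63, 8.0, 7.46 and 7.88 in FVB/N mutants. BALB/cCrl wild types measured 7.85, 8.38, 7.99 and 8.28 and FVB/N wild types 7.78, 7.80, 8.02 and 7.99. The 2 mutant groups did not overlap, and BALB/cCrl wild type 2 reached the level of the BALB/cCrl mutants with wild type 4 just below. The difference between mutants was 0.70 (SE 0.12, 95% interval 0.45 to 0.96, limma adjusted p = 0.0005), the largest of the 34 genes, and it passed in all 26 alternatives. All 5 Ndrg1 probe sets were called, with differences of 0.39 to 1.15.

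Bnip3, a mitochondrial protein that drives the removal of mitochondria in low oxygen, lies on chromosome 7 (138890836 to 138909506). It measured 12.05, 12.12, 11.92 and 11.74 in BALB/cCrl mutants and 11.58, 11.37, 11.37 and 11.66 in FVB/N mutants, and 11.46, 11.83, 11.48 and 11.64 in BALB/cCrl wild types and 11.63, 11.49, 11.76 and 11.58 in FVB/N wild types. BALB/cCrl mutants 1, 2 and 3 were above every other embryo, and mutant 4 fell within the BALB/cCrl wild type range. BALB/cCrl mutants exceeded FVB/N mutants by 0.46 (SE 0.09, 95% interval 0.27 to 0.65, limma adjusted p = 0.0017), and it passed in all 26 alternatives. Its stretch, shown above, had the most core matches among those printed, with 5 on both strands together, the palindrome being counted on each strand. Over the full promoter window, Hk1 had 5 as well.

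Ddit4, an inhibitor of mTOR signalling that is induced by low oxygen and other stresses, lies on chromosome 10 (59949675 to 59951770). It measured 9.68, 9.46, 9.79 and 9.16 in BALB/cCrl mutants and 9.26, 9.09, 9.05 and 8.39 in FVB/N mutants. Wild types measured 8.87, 9.40, 9.17 and 8.98 in BALB/cCrl and 8.95, 8.82, 9.32 and 9.13 in FVB/N. The mutant groups overlapped, because BALB/cCrl mutant 4 was below FVB/N mutant 1, and FVB/N mutant 4 was far below every other embryo. Its mean difference between mutants was 0.58 (SE 0.17, 95% interval 0.23 to 0.92, limma adjusted p = 0.029). It lost its call without FVB/N mutant 4 (0.39, limma adjusted p = 0.094), without BALB/cCrl mutant 1 (0.52, 0.094) and without BALB/cCrl mutant 3 (0.49, 0.11).

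Vegfa, the growth factor of blood vessels, on chromosome 17 (46016993 to 46032377), was called by its dimmer probe set only. That probe set measured 8.63, 8.54, 8.75 and 8.54 in BALB/cCrl mutants and 8.38, 8.32, 8.27 and 8.52 in FVB/N mutants, and 8.46, 8.56, 8.49 and 8.50 in BALB/cCrl wild types and 8.38, 8.46, 8.34 and 8.41 in FVB/N wild types. The mutant groups were apart by a narrow margin, with FVB/N mutant 4 just under the lowest BALB/cCrl mutants. Its difference was 0.24 (SE 0.07, 95% interval 0.10 to 0.38, limma adjusted p = 0.022), and the brighter probe set gave a difference of similar size, 0.22 (SE 0.09, adjusted p = 0.11). By any of its probe sets, 16 of the 34 genes were called, against 16.9% of all genes counted this way. The other 7 effectors did not pass: differences between mutants were 0.04 for the vasodilator peptide gene Adm, 0.05 for the cytokine Mif, 0.08 for Ankrd37, 0.10 for the mitochondrial gene Higd1a, 0.17 for the histone demethylase Kdm3a, and 0.20 each for the Myc antagonist Mxi1 and the carbonic anhydrase Car9. The smallest limma adjusted p among these 7 was 0.067, for Kdm3a.

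The collagen hydroxylases modify collagen chains with oxygen as a substrate. Plod2, which hydroxylates lysines in collagen telopeptides, lies on chromosome 9 (92539636 to 92608428) and was the only one of 4 to pass between mutants. Its representing probe set measured 11.01, 11.07, 10.98 and 10.40 in BALB/cCrl mutants and 10.58, 10.36, 10.41 and 10.62 in FVB/N mutants, and 10.55, 10.48, 10.80 and 10.61 in BALB/cCrl wild types and 10.65, 10.63, 10.71 and 10.71 in FVB/N wild types. BALB/cCrl mutants 1, 2 and 3 were the highest 3 embryos of all, and mutant 4 was among the lowest, so the groups overlapped. The difference between mutants was 0.37 (SE 0.11, 95% interval 0.15 to 0.60, limma adjusted p = 0.031), and the call was lost in 8 of 26 alternatives.

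The second Plod2 probe set gave another pattern. It measured 10.26, 10.01, 10.36 and 10.18 in BALB/cCrl mutants and 9.75, 9.78, 9.64 and 10.19 in FVB/N mutants, and 9.80, 10.11, 9.76 and 9.86 in BALB/cCrl wild types and 9.36, 9.50, 9.26 and 9.44 in FVB/N wild types. Here the FVB/N wild types were below all other embryos. Between mutants its difference was 0.36 (SE 0.10, 95% interval 0.14 to 0.58, limma adjusted p = 0.028), close to that of the first probe set. Between wild types it was 0.49 (SE 0.10, 95% interval 0.28 to 0.71, limma adjusted p = 0.004), where the first probe set gave -0.07. In FVB/N mutants against FVB/N wild types the second probe set gave 0.45 (SE 0.10, adjusted p = 0.051) and the first -0.18 (SE 0.11, adjusted p = 0.53), so the sign of the Plod2 effect in FVB/N depended on the probe set. The prolyl hydroxylase subunits P4ha1 and P4ha2 had differences of 0.12 and 0.19 between mutants and Plod1 had -0.07, and none of these 3 passed.

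**Figure D3:**
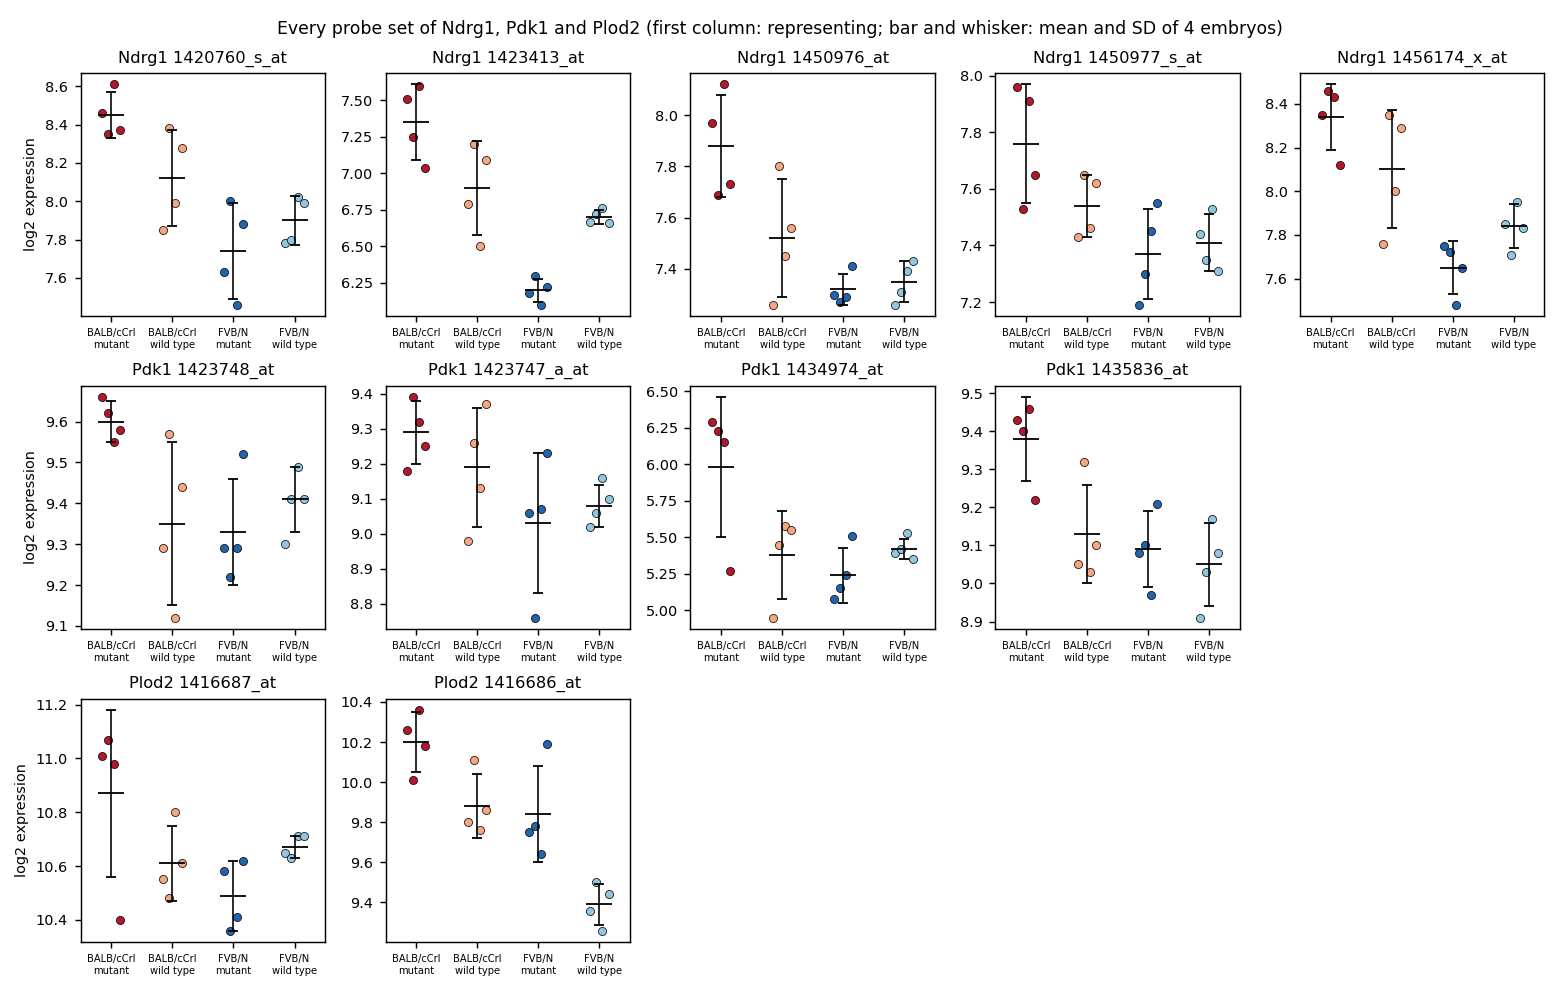
Every probe set of Ndrg1 (5), Pdk1 (4) and Plod2 (2) in the 4 groups; points are embryos in log2 units, and bar and whisker give the mean and SD of 4 embryos. All Ndrg1 probe sets place BALB/cCrl mutants highest, while the Plod2 probe sets differ in where they place the FVB/N wild types, at 10.67 ± 0.04 and 9.39 ± 0.10.

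Neither transporter passed by its representing probe set. Slc2a1, the main glucose transporter of the embryo and of blood cells, on chromosome 4 (119108745 to 119137330), measured 13.51, 13.82, 13.59 and 13.67 in BALB/cCrl mutants and 13.64, 13.44, 13.68 and 13.62 in FVB/N mutants, and 13.65, 13.71, 13.70 and 13.79 in BALB/cCrl wild types and 13.73, 13.72, 13.64 and 13.73 in FVB/N wild types. All 4 groups overlapped, and the difference between mutants was 0.05 (SE 0.06, adjusted p = 0.66). A dimmer probe set measured 12.99, 13.02, 13.10 and 12.85 in BALB/cCrl mutants and 12.61, 12.40, 12.68 and 12.98 in FVB/N mutants, with 12.58, 12.96, 12.66 and 12.86 in BALB/cCrl wild types and 12.67, 12.81, 12.70 and 12.81 in FVB/N wild types. FVB/N mutant 4 reached the BALB/cCrl mutants on this probe set and the other FVB/N mutants did not. Its difference was 0.32 (SE 0.09, 95% interval 0.13 to 0.52, limma adjusted p = 0.03), so the call for Slc2a1 depended on the probe set. Slc16a3, which exports lactate, gave 0.39 (SE 0.15, adjusted p = 0.1) between mutants, where FVB/N mutants ran from 9.37 to 10.43 and spanned both wild type groups.

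By role, the glycolytic enzymes of the set had the highest share of calls. All 9 that were analysed lay above 0 between mutants and 5 passed, or 55.6%, against 11.4% of all genes. Among 22 further glycolysis, pyruvate and lactate genes outside the set, given below, the share was 13.6%. The set and that list were chosen with earlier results of these data known, so the 2 shares are not a test. Hk1, a hexokinase that traps glucose in the cell, on chromosome 10 (62268855 to 62379920), measured 8.93, 8.92, 9.02 and 8.87 in BALB/cCrl mutants and 8.78, 8.81, 8.64 and 8.69 in FVB/N mutants, and 8.79, 8.84, 8.82 and 8.69 in BALB/cCrl wild types and 8.65, 8.74, 8.75 and 8.64 in FVB/N wild types. The 4 BALB/cCrl mutants were above all 12 other embryos. Hk1 exceeded the FVB/N mutants by 0.21 (SE 0.06, 95% interval 0.08 to 0.34, limma adjusted p = 0.031) in BALB/cCrl mutants, and its other probe set was called as well, with 0.26. Hk2, the hexokinase induced by HIF in many cells, gave 0.21 (SE 0.07, adjusted p = 0.083). It lies on chromosome 6, as Cecr2 does, 37.9 Mb away.

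Phosphofructokinase sets the pace of glycolysis, and both of its subunit genes in the set passed. Pfkm, a further subunit gene outside the set, was not called. Pfkl, the liver-type subunit, on chromosome 10 (77986947 to 78009807), measured 12.70, 12.72, 12.83 and 12.67 in BALB/cCrl mutants and 12.48, 12.28, 12.47 and 12.45 in FVB/N mutants, and 12.63, 12.71, 12.51 and 12.50 in BALB/cCrl wild types and 12.46, 12.50, 12.50 and 12.47 in FVB/N wild types. Mutant groups were well apart, and BALB/cCrl wild types 1 and 2 lay near the BALB/cCrl mutants. Between mutants Pfkl differed by 0.31 (SE 0.05, 95% interval 0.20 to 0.42, limma adjusted p = 0.00037). A second probe set gave 0.31 as well and was called, and another gave -0.03 and was not. The call was lost in 1 of 26 alternatives, the mean over probe sets.

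Pfkp, the platelet-type subunit, on chromosome 13 (6579874 to 6649060), measured 8.89, 8.96, 8.93 and 8.67 in BALB/cCrl mutants and 8.41, 8.48, 8.37 and 8.58 in FVB/N mutants, and 8.66, 8.64, 8.48 and 8.65 in BALB/cCrl wild types and 8.55, 8.45, 8.33 and 8.28 in FVB/N wild types. Every BALB/cCrl mutant was above every embryo of the other 3 groups, mutant 4 by the least. The difference between mutants was 0.40 (SE 0.08, 95% interval 0.24 to 0.57, limma adjusted p = 0.0015), and it passed in all 26 alternatives. Its other 2 probe sets gave 0.36 (adjusted p = 0.044) and 0.21 (adjusted p = 0.13).

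Pgam1, a phosphoglycerate mutase, on chromosome 19 (41911871 to 41918665), had the smallest adjusted p among the 34 representing probe sets on a small difference. It measured 13.66, 13.61, 13.63 and 13.60 in BALB/cCrl mutants and 13.45, 13.49, 13.46 and 13.37 in FVB/N mutants, and 13.57, 13.62, 13.58 and 13.60 in BALB/cCrl wild types and 13.48, 13.52, 13.52 and 13.52 in FVB/N wild types. All BALB/cCrl embryos, mutant or wild type, were above all FVB/N embryos. The difference was 0.18 (SE 0.03, 95% interval 0.12 to 0.24, limma adjusted p = 0.00019) between mutants, where it passed in all 26 alternatives, and 0.08 (SE 0.03, adjusted p = 0.11) between wild types.

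Pkm, the pyruvate kinase of the embryo, on chromosome 9 (59656576 to 59679372), measured 14.24, 14.22, 14.29 and 14.21 in BALB/cCrl mutants and 14.09, 14.10, 14.16 and 14.17 in FVB/N mutants, and 14.18, 14.25, 14.09 and 14.16 in BALB/cCrl wild types and 14.15, 14.13, 14.09 and 14.15 in FVB/N wild types. The mutant groups were apart by little, and the BALB/cCrl wild types reached into both. Pkm differed between mutants by 0.11 (SE 0.03, 95% interval 0.04 to 0.18, limma adjusted p = 0.027), the smallest among the called genes, and it was lost in 7 of 26 alternatives.

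Aldoa, the aldolase of muscle and embryo, and Pgk1, a phosphoglycerate kinase on chromosome X, were called by a probe set other than their representing one. The called Aldoa probe set measured 12.79, 12.82, 12.90 and 12.72 in BALB/cCrl mutants and 12.71, 12.50, 12.61 and 12.75 in FVB/N mutants, and 12.78, 12.80, 12.68 and 12.75 in BALB/cCrl wild types and 12.69, 12.74, 12.68 and 12.67 in FVB/N wild types. FVB/N mutant 4 overlapped the BALB/cCrl mutants, and FVB/N mutants 2 and 3 were the lowest embryos. Its difference was 0.16 (SE 0.05, adjusted p = 0.032), and the representing probe set gave 0.12 (SE 0.04, adjusted p = 0.07). The called Pgk1 probe set measured 13.86, 13.89, 13.89 and 13.89 in BALB/cCrl mutants and 13.72, 13.83, 13.83 and 13.77 in FVB/N mutants, and 13.89, 13.84, 13.85 and 13.84 in BALB/cCrl wild types and 13.90, 13.85, 13.85 and 13.78 in FVB/N wild types. The mutant groups did not overlap, but the difference was only 0.10 (SE 0.03, adjusted p = 0.048), and it was lost in 21 of 26 alternatives. Both called probe sets carry the array's suffix for possible cross-hybridisation, and both genes have processed copies in the mouse genome, so their values are uncertain.

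Of the 4 regulators of glycolytic flux, 2 passed. Pdk1, the kinase that shuts pyruvate out of mitochondrial oxidation, on chromosome 2 (71873215 to 71903858), measured 9.66, 9.62, 9.55 and 9.58 in BALB/cCrl mutants and 9.29, 9.22, 9.29 and 9.52 in FVB/N mutants, and 9.29, 9.57, 9.12 and 9.44 in BALB/cCrl wild types and 9.30, 9.41, 9.49 and 9.41 in FVB/N wild types. The 4 BALB/cCrl mutants were close together and above all FVB/N mutants, whereas the BALB/cCrl wild types were widely spread. Between mutants Pdk1 differed by 0.27 (SE 0.08, 95% interval 0.10 to 0.44, limma adjusted p = 0.04), and the call was lost in 12 of 26 alternatives. All 4 Pdk1 probe sets lay above 0, from 0.26 to 0.74, and 3 were called. On the probe set with 0.74, BALB/cCrl mutants measured 6.29, 6.23, 6.15 and 5.27 and FVB/N mutants 5.08, 5.15, 5.24 and 5.51, so mutant 4 lay within the FVB/N range.

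Ak4, an adenylate kinase of mitochondria and a HIF target, on chromosome 4 (101416478 to 101467771), measured 11.07, 11.06, 10.95 and 10.87 in BALB/cCrl mutants and 10.75, 10.68, 10.75 and 10.68 in FVB/N mutants, and 10.76, 10.97, 10.75 and 10.85 in BALB/cCrl wild types and 10.81, 10.85, 10.91 and 10.82 in FVB/N wild types. FVB/N mutants were the lowest group and did not overlap any other group except at 10.75, which a BALB/cCrl wild type shared. The difference between mutants was 0.27 (SE 0.06, 95% interval 0.16 to 0.39, limma adjusted p = 0.0023). The representing probe set was the only one of 5 for Ak4 to be called, and 2 of the 5 lay below 0. Of those 2, 1 was no brighter than the Y-linked probe sets. The Ak4 call was lost in 1 of 26 alternatives, the mean over probe sets. Pfkfb3 and Pfkfb4, which make and break the sugar bisphosphate that activates phosphofructokinase, gave 0.26 (SE 0.16, adjusted p = 0.37) and 0.25 (SE 0.09, adjusted p = 0.079). Pfkfb3 had the largest spread of the 34 genes among BALB/cCrl mutants and among BALB/cCrl wild types (SD 0.34 and 0.37).

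**Figure D4:**
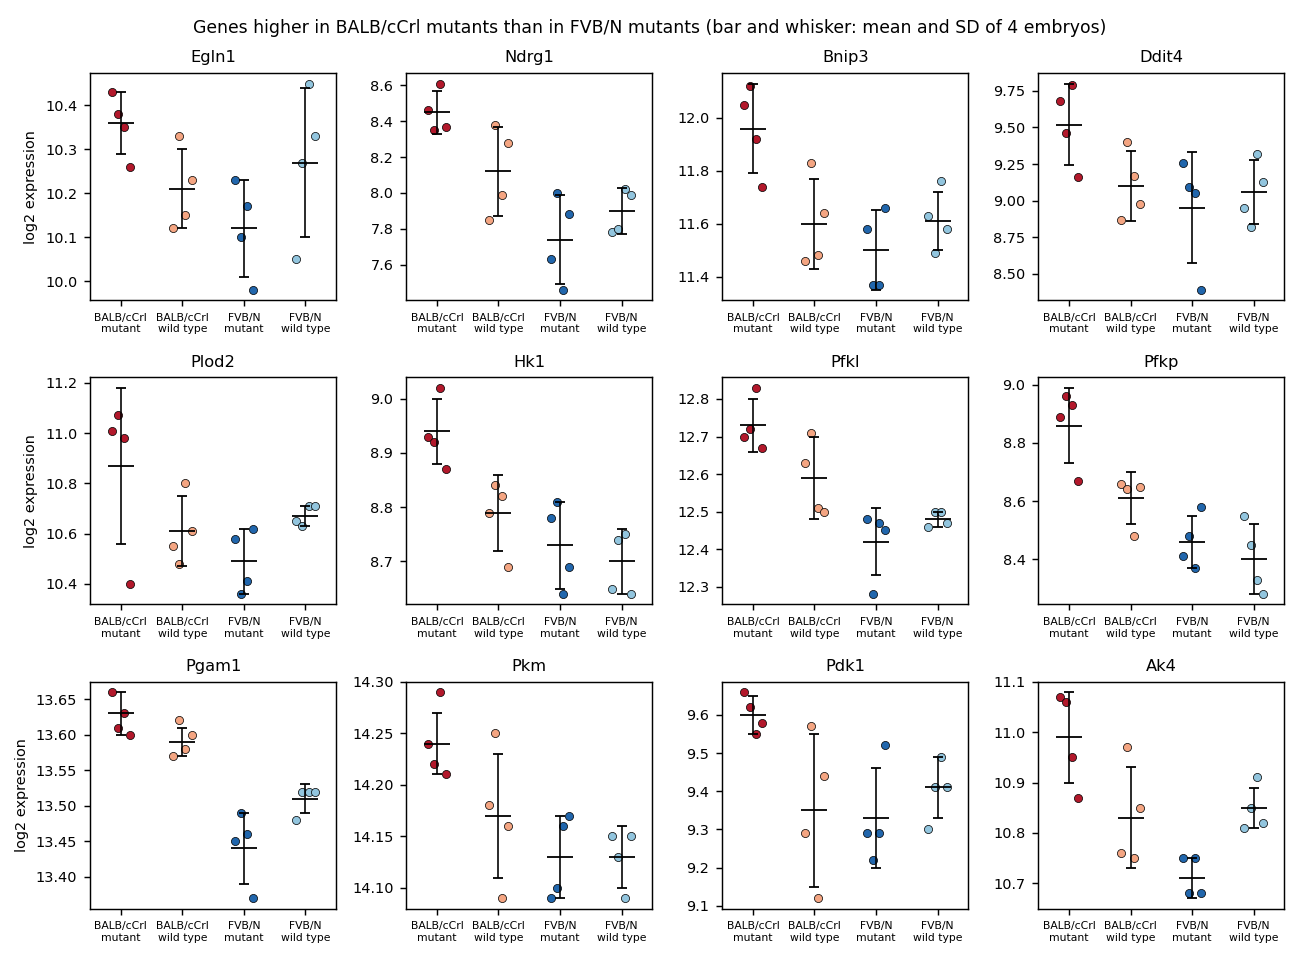
Log2 expression of the 12 genes that were higher in BALB/cCrl mutants than in FVB/N mutants; points are embryos, and bar and whisker give the mean and SD of 4 embryos, with a separate vertical scale for each gene. Egln1, Ndrg1, Bnip3, Hk1, Pfkl, Pfkp, Pgam1, Pkm, Pdk1 and Ak4 do not overlap between the mutant groups, and Ddit4 and Plod2 do.

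Single embryos weighed on the number of calls. Without BALB/cCrl mutant 3 the count fell to 6, with Ddit4, Egln1, Hk1, Pdk1, Pkm and Plod2 lost. Without BALB/cCrl mutant 1 it was 8, with the same 6 genes lost and Aldoa and Epas1 gained. Without FVB/N mutant 3 it was 8, with Egln1, Hk1, Pdk1 and Plod2 lost. Without BALB/cCrl mutant 4 it was 14. Every call under every setting was higher in BALB/cCrl mutants. Ndrg1, Bnip3, Pfkp and Pgam1 were called with all 16 arrays and in all 26 alternatives.

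The gene trap itself gave no call among the 34 genes within BALB/cCrl, where 0.0440% of all genes passed. The differences of mutants from wild types lay above 0 in 30 of 34 genes, against 47.2% of all genes, with a median of 0.10 against -0.01 for all genes. At an unadjusted p under 0.05 there were 12 of 34, against 9.72% of all genes. The smallest adjusted p belonged to Bnip3, with 0.36 (SE 0.09, adjusted p = 0.27), followed among representing probe sets by Pfkp with 0.26 (SE 0.08, adjusted p = 0.36) and Pdk1 with 0.25 (SE 0.08, adjusted p = 0.39). Ddit4 had the largest difference by the representing probe set, 0.42 (SE 0.17, adjusted p = 0.45). Of these 4 genes only Pfkp did not overlap between the groups, and P4ha1 and Hk1 did not overlap either, against 1.61% of all genes that were higher without overlap. Among other probe sets, 1 of Pdk1 gave 0.60 (SE 0.18, adjusted p = 0.35) and 1 of Pfkp gave 0.42 (SE 0.11, adjusted p = 0.33), and both passed without BALB/cCrl mutant 4 (0.84, limma adjusted p = 0.011, and 0.52, 0.046). By the representing probe set, 2 of the 34 genes passed without that embryo, Bnip3 (0.43, limma adjusted p = 0.05 after rounding) and Plod2 (0.41, 0.024). Gapdh 3′ to 5′ probe ratios, a measure of RNA integrity, were 0.006 to 0.028 in BALB/cCrl mutants and -0.04 to 0.002 in BALB/cCrl wild types on the log2 scale of the tables for that pair. The part of this small gap in the result was not tested.

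Within FVB/N the trap gave no call by the representing probe sets either, where 0.511% of all genes passed. Here 26 of 34 differences lay below 0 and 8 above, where 50.7% of all genes lay above. The median was -0.06 against 0.00 for all genes, and 3 of 34 had an unadjusted p under 0.05, against 11.0% of all genes. By representing probe sets Aldoc, the aldolase of brain, had the smallest adjusted p. It measured 8.06, 7.80, 7.94 and 7.98 in FVB/N mutants and 8.40, 8.23, 8.22 and 8.19 in FVB/N wild types, and 7.91, 8.48, 8.15 and 8.11 in BALB/cCrl mutants and 8.38, 8.48, 8.12 and 8.45 in BALB/cCrl wild types. The FVB/N groups did not overlap and the BALB/cCrl groups did. Its difference was -0.31 (SE 0.10, adjusted p = 0.2) in FVB/N and -0.20 (SE 0.10, adjusted p = 0.56) in BALB/cCrl. In 3 of 34 genes, Aldoc, Ak4 and Plod2, every FVB/N mutant was below every FVB/N wild type, against 3.18% of all genes. After Aldoc the smallest adjusted p were those of Ak4 with -0.13 (SE 0.06, adjusted p = 0.32) and Pgam1 with -0.07 (SE 0.03, adjusted p = 0.35). Over all probe sets 2 had a smaller adjusted p than Aldoc, the second of Plod2, given above, and the Ndrg1 probe set with the largest difference between mutants, with -0.51 (SE 0.13, adjusted p = 0.087) and no overlap. The Ndrg1 probe set passed when only the FVB/N arrays were fitted (limma adjusted p = 0.016), without BALB/cCrl mutant 4 (0.048) and without BALB/cCrl wild type 3 (0.046). The Plod2 probe set passed without FVB/N mutant 3 (0.52, limma adjusted p = 0.044), without BALB/cCrl mutants 2 or 4 (0.036 and 0.045) and without BALB/cCrl wild type 2 (0.05 after rounding). The other 4 Ndrg1 probe sets gave -0.18 to -0.03. The Gapdh ratio was -0.042 to 0.021 in FVB/N mutants and -0.095 to -0.042 in FVB/N wild types, and its part was not tested.

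The 2 trap effects, which share no array, had opposite signs in most of the 34 genes. In 23 of 34 genes, or 67.6%, the trap difference was above 0 in BALB/cCrl and below 0 in FVB/N, against 19.3% of all genes. Both differences were above 0 in 7 genes, both below 0 in 3 and reversed in 1, Hif1a. The test of the difference itself, the interaction of trap and strain, called none of the 34, where 0.0660% of all genes passed. The interaction lay above 0 in 32 of 34 genes, against 47.3% of all genes, with a median of 0.15 against -0.01 for all genes, and 10 had an unadjusted p under 0.05, against 6.95% of all genes. The smallest adjusted p were those of Bnip3 with 0.47 (SE 0.13, adjusted p = 0.22), Ak4 with 0.29 (SE 0.08, adjusted p = 0.23) and Egln1 with 0.30 (SE 0.10, adjusted p = 0.42). Those values are from representing probe sets. The smallest adjusted p over all 76 probe sets was that of the Ndrg1 probe set with the largest difference between mutants, with 0.96 (SE 0.19, adjusted p = 0.062), which also missed the threshold. It measured 7.51, 7.25, 7.6 and 7.04 in BALB/cCrl mutants and 6.79, 7.20, 6.50 and 7.09 in BALB/cCrl wild types, and 6.18, 6.30, 6.10 and 6.22 in FVB/N mutants and 6.67, 6.72, 6.76 and 6.66 in FVB/N wild types. The BALB/cCrl groups overlapped, and the FVB/N mutants were below all other embryos. This probe set passed with array weights (limma adjusted p = 0.039), without BALB/cCrl mutant 4 (1.06, 0.026), without BALB/cCrl wild type 2 (1.06, 0.033) and without BALB/cCrl wild type 3 (0.82, 0.037). The other 4 Ndrg1 probe sets gave 0.25 to 0.48. Without BALB/cCrl mutant 4 the interaction also passed for 1 Pdk1 probe set (1.02, limma adjusted p = 0.033) and for the representing probe set of Plod2 (0.59, 0.025), whose second probe set gave -0.13 with all arrays.

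**Figure D5:**
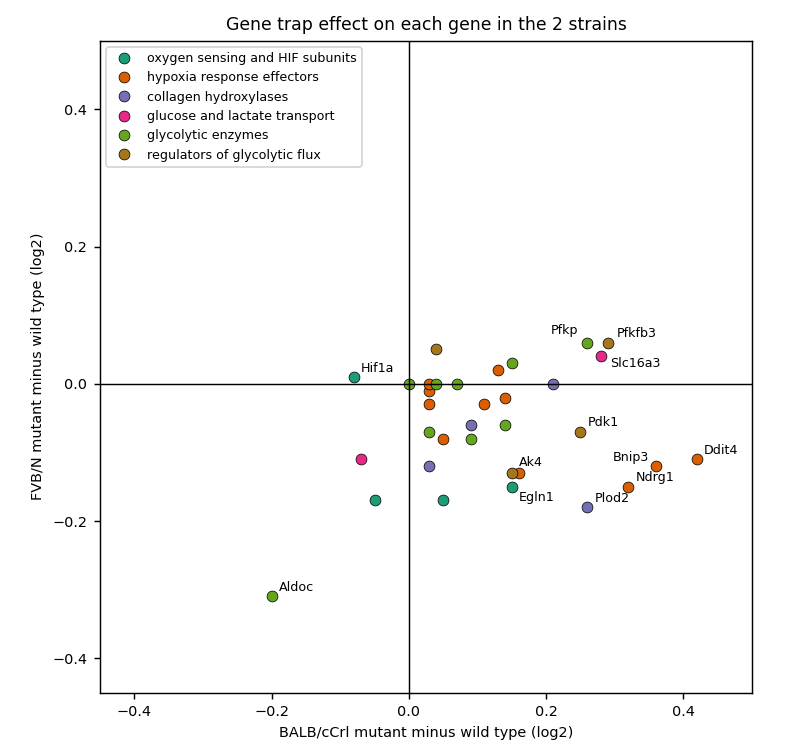
Trap difference (mutant minus wild type, log2) of each of the 34 genes in BALB/cCrl (horizontal) and in FVB/N (vertical), coloured by role. The lower right field, above 0 in BALB/cCrl and below 0 in FVB/N, holds 23 of the 34 genes, and no gene passed the test in either strain.

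Averaged over both strains, the trap effect called none of the 34 by the representing probe set, where 0.544% of all genes passed. The median was 0.02, 24 of 34 lay above 0 against 49.0% of all genes, and 4 had an unadjusted p under 0.05 against 13.7% of all genes. Aldoc came first with -0.25 (SE 0.07, adjusted p = 0.13), then Pfkp with 0.16 (SE 0.06, adjusted p = 0.21) and Slc2a1 with -0.09 (SE 0.04, adjusted p = 0.32). Without BALB/cCrl mutant 2 Aldoc passed (-0.31, limma adjusted p = 0.034). Plod2 was called by its second probe set, 1 of 34 genes against 0.770% of all genes by any probe set, with 0.39 (SE 0.07, 95% interval 0.23 to 0.54, limma adjusted p = 0.02), while its representing probe set gave 0.04 (SE 0.08, adjusted p = 0.86).

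Between the wild types of the 2 strains none of the 34 passed by the representing probe set, where 6.90% of all genes passed. The differences of BALB/cCrl from FVB/N lay above 0 in 22 of 34 genes, against 49.1% of all genes, with a median of 0.04, and 7 had an unadjusted p under 0.05, against 19.4% of all genes. Egln3 was nearest to the threshold by the representing probe set, with -0.27 (SE 0.09, adjusted p = 0.069), and lay below 0. Pfkfb4 followed with 0.26 (SE 0.09, adjusted p = 0.092). It measured 7.91, 7.88, 7.90 and 7.79 in BALB/cCrl wild types and 7.59, 7.33, 7.83 and 7.70 in FVB/N wild types, and 7.87, 7.94, 7.97 and 7.89 in BALB/cCrl mutants and 7.73, 7.53, 7.75 and 7.66 in FVB/N mutants. All BALB/cCrl mutants were above all FVB/N mutants on this gene, and FVB/N wild type 3 reached the BALB/cCrl wild types. Without that wild type both genes passed, Egln3 with -0.34 (limma adjusted p = 0.026) and Pfkfb4 with 0.33 (0.027). Egln3 also passed without BALB/cCrl wild type 4 (-0.33, limma adjusted p = 0.035), and Pgam1 without FVB/N mutant 4, which enters the shared estimate of the spread (0.08, 0.039). Aldoa, with 0.11 (SE 0.04, adjusted p = 0.11), and Pgam1 did not overlap between the wild types, against 6.41% of all genes that were higher without overlap. Plod2 was called by its second probe set alone, which makes 1 of 34 genes by any probe set, against 10.6% of all genes. All 9 glycolytic enzymes of the set lay above 0 between wild types as well, with a median of 0.09, against 0.21 between mutants.

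Other genes of the pathway were taken from lists outside the set. Their median differences between mutants were smaller than the 0.21 of the set. The set and the lists were chosen with earlier results of these data known, so this contrast is not a test. Among 13 further oxygen sensing genes, 2 were higher in BALB/cCrl mutants than in FVB/N mutants and none was lower, with a median of -0.01. They were Hif3a, a further HIF alpha subunit, with 0.31 (adjusted p = 0.0061), and Rbx1, a subunit of the ligase that degrades HIF alpha, with 0.38 (adjusted p = 0.045). Among 22 further glycolysis, pyruvate and lactate genes, 2 were higher and 1 lower, with a median of 0.03. The 2 were the glucose transporter Slc2a3, with 0.14 (adjusted p = 0.025), and the triosephosphate isomerase Tpi1, with 0.14 (adjusted p = 0.049), and they lie on chromosome 6 at 2.1 Mb and 4.1 Mb from Cecr2. The gene that was lower was Pdha1, a subunit of pyruvate dehydrogenase, with -0.16 (adjusted p = 0.0065). Among 19 further hypoxia targets, 3 were higher and 2 lower, with a median of 0.09. The glycogen synthase Gys1, the growth factor Pdgfb and the transferrin receptor Tfrc had 0.24 (adjusted p = 0.029), 0.25 (adjusted p = 0.028) and 0.31 (adjusted p = 0.0035), and the lipase inhibitor Angptl4 and the heme oxygenase Hmox1 had -0.30 (adjusted p = 0.037) and -0.27 (adjusted p = 0.031). Tfrc is also a gene of maturing red cells. Hif3a and Tfrc were higher in BALB/cCrl than in FVB/N wild types as well, by 0.24 (limma adjusted p = 0.049) and 0.31 (0.0044). The shares called were 15.4%, 13.6% and 26.3% of these lists, against 11.4% of all genes.

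Within the trap comparisons of single strains 2 further genes passed, both in FVB/N. Cited2, which competes with HIF for a coactivator, averaged 11.91 ± 0.09 in FVB/N mutants and 12.20 ± 0.07 in FVB/N wild types (SD, n = 4 each). Ldhb, a lactate dehydrogenase subunit on chromosome 6 at 21.8 Mb from Cecr2, averaged 9.47 ± 0.24 in FVB/N mutants and 10.61 ± 0.07 in FVB/N wild types, against 9.26 ± 0.11 in BALB/cCrl mutants and 9.19 ± 0.09 in BALB/cCrl wild types. The trap difference was -0.28 (SE 0.06, limma adjusted p = 0.029) for Cited2 and -1.14 (SE 0.09, limma adjusted p = 7.4e-07) for Ldhb. Those genes were 7.69% and 4.55% of their lists, against 0.511% of all genes. Ldhb was also called in the interaction, with 1.22 (SE 0.13, limma adjusted p = 7e-05), where 0.0660% of all genes passed. Its trap effect averaged over both strains was -0.53 (SE 0.065, limma adjusted p = 0.00032), where 0.544% of all genes passed. Between wild types Ldhb was lower in BALB/cCrl, with -1.43 (SE 0.09, limma adjusted p = 1.2e-09), where 6.90% passed.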

How the data were processed

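The data are log2 expression values of 45037 probe sets on 16 arrays, which the authors normalised together as a 4-group set, per the text deposited with them. Per the submitters' processing notes, RMA and GCRMA were used, but which of them made this table, and in which version, is not stated there. The authors also deposited log2 tables normalised by gcRMA for 3 single pairs of groups, per that text, which served as an alternative and for the Gapdh ratios; no such table of the mutant pair was used here. There is no read depth on arrays, so the 4 embryos per group limit the precision.

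Gene symbols came from the annotation of the array platform: 34945 probe sets carried 1 symbol, 932 several and 9160 none. Positions and promoters came from RefSeq tables of GRCm38.p6. All 16 arrays were fitted in limma 3.58.1 (R 4.3.3) as 4 group means without covariates, and the empirical Bayes spread was allowed to follow intensity. All tests were two-sided, with Benjamini-Hochberg adjustment over all probe sets and a threshold of 0.05. The script was tested on simulated data. Values per embryo are given for genes with any called probe set and for the 3 genes with the smallest p in each comparison. Alternatives covered normalisation, the spread model, the arrays fitted, dim probe sets, the probe sets per gene, a replicate block, and leaving out each array. The genes, lists and tests were chosen with earlier results of these data known.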

Additional observations from a re-analysis of the deposited data

Results flagged for a closer look

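In 7 of the 136 sets of 4 embryos (34 genes in 4 groups) a single embryo lay apart, its gap to the nearest of the others, as a share of the range of the group, being above Dixon's 95% limit. Chance gives such a set about 1 time in 20. Plod2 in BALB/cCrl mutant 4 was 10.40, against 10.98 to 11.07 in the other 3, and the value bears on the Plod2 call above. Pfkp in BALB/cCrl wild type 3 was 8.48, against 8.64 to 8.66. Among FVB/N mutants, Kdm3a was 10.94 in embryo 4 against 11.07 to 11.08, Mxi1 was 9.19 in embryo 1 against 8.81 to 8.86, and Pfkl was 12.28 in embryo 2 against 12.45 to 12.48. Among FVB/N wild types, Hif1a was 12.09 in embryo 3 against 12.21 to 12.23, and Pgam1 was 13.48 in embryo 1 against 13.52 in each of the other 3.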

How the results depend on the processing

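Between the mutants of the 2 strains the count of 12 called genes ran from 6 (without BALB/cCrl mutant 3) to 14 (without BALB/cCrl mutant 4) when single arrays were left out, and from 8 to 16 under the other alternatives. Every call was higher in BALB/cCrl mutants. The median of 0.206 ran from 0.18 to 0.239 without single arrays. It moved to 0.152 without FVB/N mutants 3 and 4, an alternative chosen after seeing the data, as was leaving out BALB/cCrl wild type 1 and mutant 4. Between wild types the count of 0 ran from 0 to 2 without single arrays: 2 without FVB/N wild type 3, and 1 without FVB/N mutant 4 or BALB/cCrl wild type 4. It was 2 with array weights, 1 with only the arrays compared, 1 without FVB/N mutants 3 and 4, and 1 with the replicate block. The numbers of the embryos were not taken to pair them. Same-numbered embryos correlated at -0.145 to 0.169 in their deviations from group means, over 0.1 in 6 of 24 pairs. The median was 0.019, against -0.005 for embryos of other numbers. Litters are not given, so pairing by litter was not tested. With the replicate block the count between mutants was 11. Within BALB/cCrl the count of 0 ran from 0 to 2, and was 2 without mutant 4. The interaction count ran from 0 to 1 and was 1 without BALB/cCrl mutant 4. The mean trap count ran from 0 to 1, with 1 under array weights and 1 without BALB/cCrl mutant 2. Within FVB/N the count was 0 under every setting run. These counts are by the representing probe set. Over 43 results on single probe sets and 1120 comparisons with an alternative, 961 kept their side of the threshold, 149 lost a call, 10 gained one and 0 changed direction. The gcRMA tables hold the 3 comparisons other than that of the mutants and called 0 of the genes in each by the representing probe set. On every array 4 dim probe sets, of Mif, Aldoc and Ak4, lay at or below 4.53, the top of the range of Y-linked probe sets, so their differences are not interpretable.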
